A study of Mus musculus with 4 samples.

Results

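The Hedgehog pathway was followed through 9 genes of the 32285 measured: the ligands Ihh and Dhh, the receptor Ptch1, the signal transducer Smo, the transcription factors Gli1, Gli2 and Gli3, the ligand-binding antagonist Hhip, and Pthlh, which encodes the parathyroid hormone-related protein that works with Ihh in cartilage. The genes were chosen by name from known roles in the pathway and none of them entered the marker lists that assigned cells. The study took the tibial muscles of Nse-Bmp4 mice, in which a Bmp4 transgene is driven by the neuron-specific enolase promoter, so that muscle injury is followed by heterotopic ossification (HO), the formation of cartilage and bone outside the skeleton. All mice were C57BL/6, 6 to 8 weeks of age, and all carried the transgene. Muscles were left uninjured or were collected at 1, at 3 or at 7 days post injury (dpi) after cardiotoxin, a snake venom toxin that kills muscle fibres, and each of the 4 groups was 1 single-cell RNA library made from 3 pooled muscles. Because each group was 1 library, no difference between days could be tested against animals, and days and libraries cannot be told apart. There was no group without the transgene, so effects of the transgene cannot be told apart from those of injury.

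After filtering, 52853 of 62665 cell barcodes remained, 9641 to 20301 per library. The libraries held 91146335 to 129007669 unique molecular identifiers (UMIs, each standing for 1 captured transcript), and the median kept cell fell from 8638 UMIs in the uninjured library to 3049 at 7 dpi. Cells were assigned to classes by the share of each class's markers they expressed. The mesenchymal gate held 8387 uninjured, 3825 1 dpi, 6309 3 dpi and 8402 7 dpi cells. A chondrocyte gate, which required 5 of 10 cartilage markers, held 4803 cells at 7 dpi, and a transitional gate with 3 to 4 of these markers held 2138. Schwann cells numbered 158 to 239 per library and endothelial cells 22 to 128. Gating markers common in their own gate were 7 of 8 mesenchymal, 9 of 10 chondrocyte, 7 of 8 Schwann and 8 of 8 endothelial. Cells were chosen by these markers, so the counts describe the gates and are no support for the labels. Pairs of libraries shared 30 to 95 cell barcodes.

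Hedgehog ligands are secreted proteins that bind PTCH1 on receiving cells. Unbound PTCH1 holds SMO inactive, and ligand binding releases SMO, which turns GLI2 and GLI3 from repressors towards activators of transcription. Ptch1, Gli1 and Hhip are themselves classical transcriptional targets of the pathway, so their RNA is commonly read as a record of the signal, and the PTCH1 and HHIP proteins both limit it by binding ligand. In the growth plate, Ihh is made by prehypertrophic and early hypertrophic chondrocytes, and PTHrP, acting through its receptor Pth1r, delays the entry of chondrocytes into hypertrophy. Dhh is the ligand of Schwann cells and is also made by endothelium, with a role in the sheath of peripheral nerves.

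The regulatory sequence just before the start of the 2 ligands and of 2 of the targets is shown because the ligands were highest in different cells and the targets rose together in the mesenchymal cells. Sequences are from RefSeq for GRCm38.p6, 250 bases up to the transcription start, written 5′ to 3′ on the strand of the gene, and capitals mark GGGCGG or its reverse complement CCGCCC, the core of a GC box. The Ihh stretch lies at chr1:74951673-74951922, the Dhh stretch at chr15:98898541-98898790, the Ptch1 stretch at chr13:63565736-63565985 and the Hhip stretch at chr8:80058009-80058258, all on the minus strand and none overlapping an annotated exon. The Ptch1 stretch lies within the longer span that GENCODE gives the gene.
Ihh: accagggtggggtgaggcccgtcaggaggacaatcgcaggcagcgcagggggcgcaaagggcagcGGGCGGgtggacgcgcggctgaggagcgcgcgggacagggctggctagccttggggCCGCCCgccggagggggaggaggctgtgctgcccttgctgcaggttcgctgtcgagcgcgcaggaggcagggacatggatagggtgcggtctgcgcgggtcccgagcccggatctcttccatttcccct
Dhh: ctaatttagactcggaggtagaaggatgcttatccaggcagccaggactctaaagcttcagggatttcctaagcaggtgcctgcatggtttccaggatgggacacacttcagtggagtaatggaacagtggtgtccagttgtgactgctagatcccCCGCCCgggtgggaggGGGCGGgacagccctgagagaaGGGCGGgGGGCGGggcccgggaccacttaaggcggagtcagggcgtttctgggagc
Ptch1: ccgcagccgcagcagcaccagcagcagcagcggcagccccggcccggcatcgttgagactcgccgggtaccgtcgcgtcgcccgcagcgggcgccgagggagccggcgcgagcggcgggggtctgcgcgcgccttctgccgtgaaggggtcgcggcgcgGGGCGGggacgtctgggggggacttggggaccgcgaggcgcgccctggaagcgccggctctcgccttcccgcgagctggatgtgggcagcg
Hhip: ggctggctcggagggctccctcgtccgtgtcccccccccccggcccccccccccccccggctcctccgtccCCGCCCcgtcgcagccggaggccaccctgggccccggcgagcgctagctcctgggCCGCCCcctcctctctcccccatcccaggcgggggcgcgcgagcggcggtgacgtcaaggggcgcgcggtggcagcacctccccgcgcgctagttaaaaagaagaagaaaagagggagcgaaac

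The 4 stretches were rich in G and C. The GC content was 72% for Ihh, 59.6% for Dhh, 78.4% for Ptch1 and 76.0% for Hhip. The mean was 53.2% over the 250 bases before the start in all 32851 RefSeq promoter windows. Each window was 300 bases long, from 250 before the start to 50 after it. Ihh and Hhip held 2 GC box cores each, Ptch1 held 1 and Dhh held 4, and 32.7% of all stretches of 250 bases held at least 1. The GLI consensus GACCACCCA and its reverse complement TGGGTGGTC were in none of the windows of the 8 members that had an entry, and neither was the shorter core CCACCCA, which is contained in the consensus. Gli1 was the member without an entry, so its promoter was not examined. The consensus was in 0.253% of all windows and the core in 9.30%, so an absence from these few bases was the common case.

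Ihh, on chromosome 1 (GRCm38, chr1:74945315-74951672, minus strand), was found almost wholly in cells that carried cartilage markers at 7 dpi. The whole libraries held 1 Ihh UMI in uninjured muscle, 1 at 1 dpi, 6 at 3 dpi and 1580 at 7 dpi. Of the latter, 1488 were in the chondrocyte gate, which is 94.2%. The level there was 58.5 CPM (UMIs scaled to the total of the same cells, with an exact Poisson 95% interval of 55.5 to 61.5). In the same library it was 2.19 CPM (1.51 to 3.07) in the transitional gate and 0.692 CPM (0.464 to 0.995) in the mesenchymal gate. Intervals here are for counting error alone and leave out the variation among mice and among cells.

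The chondrocyte level of Ihh was 84.4-fold (58.5 to 127) that of the mesenchymal gate. A gene was called different where the ratio of its summed CPM was above 2 or below 0.5 with an interval that left out 1, over sums of at least 50 UMIs, and 9.95% of 13660 genes were called between these gates, 4.26% higher and 5.69% lower in the chondrocytes. Ihh was the only member called higher in the chondrocyte gate, while Pthlh was called lower, and the other 6 members tested were within 2-fold. The residual Ihh in the mesenchymal gate was 1.18% of the chondrocyte level. In the immune gates of that library, which should not make these genes, Ihh stood at 0.378% of its chondrocyte level from 1 UMI, Col2a1 at 1.17%, Acan at 1.51%, Pth1r at 2.10% and Sox9 at 3.32%. The mesenchymal share of Ihh lay within this range, and no expression was read from it.

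Within the 7 dpi cells, Ihh rose with each step in the number of cartilage markers above the low end. It was 0.223 CPM in cells with 0 of the 10 markers, 0.891 with 1 and 0.747 with 2. It was 2.19 CPM with 3 to 4 markers, 12.1 (9.54 to 15.0) with 5 to 6, 56.8 (52.0 to 62.0) with 7 to 8 and 90.6 (84.8 to 96.7) with 9 to 10. The intervals of the last 4 groups did not overlap. The groups also differed in depth, with medians of 2166 UMIs per cell at 0 markers, 2877 at 5 to 6 and 5330 at 9 to 10, and the part of depth in this order was not tested.

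Along Col10a1, the collagen of hypertrophic cartilage, Ihh was higher in each group than in the one before. Chondrocyte gate cells with 0 Col10a1 UMIs had 27.3 CPM of Ihh (25.0 to 29.8). The level was 51.9 with 1 Col10a1 UMI, 89.0 with 2 to 4, 147 with 5 to 9, 219 with 10 to 19 and 346 (314 to 380) with 20 or more. The share of cells with an Ihh UMI went from 8.72% to 60.6% over the same groups, and after each cell was thinned to 1000 UMIs it went from 2.44% to 24.8%. Cells with at least 2 Col10a1 UMIs together had 199.97 CPM of Ihh against 29.8 in the others, a ratio of 6.72 (6.05 to 7.46), and Ihh was the only member called among 8 tested, where 3.75% of all genes were called.

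**Figure D1:**
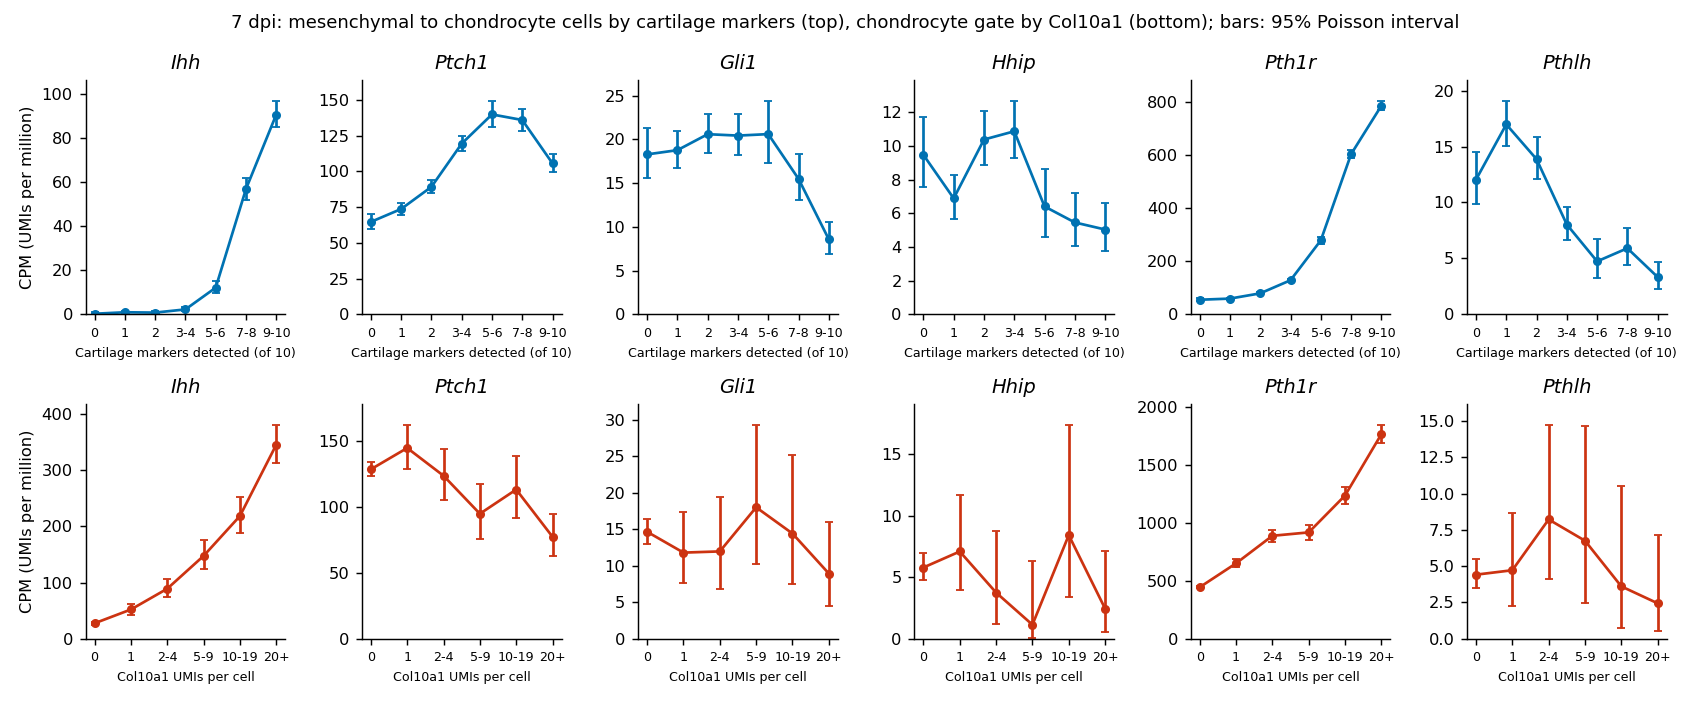
Level of 6 genes in CPM (vertical axes from 0, a scale for each gene) in the 7 dpi library, for cells grouped along the horizontal axis by the cartilage markers detected (upper row) and, within the chondrocyte gate, by Col10a1 UMIs (lower row), with points for summed levels and bars for 95% Poisson intervals. Ihh climbs to 90.6 CPM with 9 to 10 markers and to 346 CPM with 20 or more Col10a1 UMIs, while Ptch1 is highest in the cells with 5 to 6 markers.

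Ihh was unevenly spread among the chondrocytes. An Ihh UMI was seen in 678 of 4803 cells, 14.1% (13.1 to 15.1, exact binomial interval), and in 4.56% of cells thinned to 1000 UMIs. Most of these cells, 428, had a single Ihh UMI, but 45 cells with 5 to 9 UMIs and 19 cells with 10 or more held 19.6% and 20.6% of all Ihh UMIs in the gate, and the highest cell had 37. The cells with 10 or more Ihh UMIs were deep, with a median of 18231 UMIs in all against 3485 in the cells without Ihh.

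The chondrocytes with Ihh had more RNA of other prehypertrophic and hypertrophic genes. Col10a1 was 6.90-fold (6.67 to 7.13) that of the chondrocytes without Ihh, the PTHrP receptor gene Pth1r 2.90-fold (2.80 to 2.99) and the channel gene Panx3 2.70-fold (2.57 to 2.84). Runx2 and Sp7, transcription factors of hypertrophic cartilage and bone, were 1.41-fold and 1.31-fold. The target genes went the other way: Ptch1 was 0.750-fold (0.678 to 0.827), Gli1 0.575-fold (0.407 to 0.796) and Hhip 0.404-fold (0.203 to 0.730) the level in cells without Ihh. The cells with Ihh thus had less target RNA per UMI than the chondrocytes without an Ihh UMI. The cells with Ihh were also deeper, with a median of 4864.5 UMIs against 3485.

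Over the 29 class-by-library sums with at least 100 cells, the genes whose log2(CPM + 1) was most like that of Ihh were Matn1 (Pearson r of 0.92), Ucma (0.91), Meltf (0.90), Slc13a5 (0.88) and Prss50 (0.87), out of 14395 genes compared. Matn1 and Ucma are cartilage matrix genes, and both are also among the markers that defined the chondrocyte gate. The sums come from only 4 libraries, and for Ihh the likeness rests chiefly on the chondrocyte sum.

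Dhh (chr15:98891152-98898540, minus strand, overlapping Rhebl1 on the same strand) had high levels in the Schwann and endothelial gates and was present before injury. The Schwann gate had 151 CPM (127 to 178) in uninjured muscle, 215 (185 to 249.2) at 1 dpi, 231 (185 to 284) at 3 dpi and 150 (116 to 191) at 7 dpi, from 142, 177, 90 and 65 UMIs. The level was thus highest at 1 and 3 dpi, by 1.42-fold (1.13 to 1.78) at 1 dpi over uninjured, and under the 2-fold call, which 10.6% of genes passed in that step. Schwann cells held 85.03% of all Dhh UMIs of the uninjured library, 79.0% at 1 dpi, 58.8% at 3 dpi and 45.1% at 7 dpi. Most Dhh UMIs of the 7 dpi library were thus outside the Schwann gate. The share of Schwann cells among the kept cells was 2.32%, 1.95%, 1.27% and 0.778% in the same order.

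Endothelial cells were the other class with a high level of Dhh. Their level was 83.4 CPM (38.1 to 158) from 22 uninjured cells, 83.6 (56.4 to 119) at 1 dpi, 103 (74.3 to 139) at 3 dpi and 33.4 (16.7 to 59.8) at 7 dpi. Dhh in endothelium was lower at 7 dpi than at 3 dpi, at 0.324-fold (0.151 to 0.641), which rests on 11 and 42 UMIs, in a comparison that called 11.4% of genes lower. Schwann cells had 1.82-fold (0.930 to 4.05) the endothelial level in uninjured muscle, 2.57-fold (1.74 to 3.93) at 1 dpi, 2.24-fold (1.54 to 3.31) at 3 dpi and 4.49-fold (2.35 to 9.43) at 7 dpi. The uninjured interval included 1 and those of the 3 injured libraries did not. Dhh in the mesenchymal gate was 0.143 to 0.406 CPM, and 0.746 CPM in the chondrocyte gate.

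**Figure D2:**
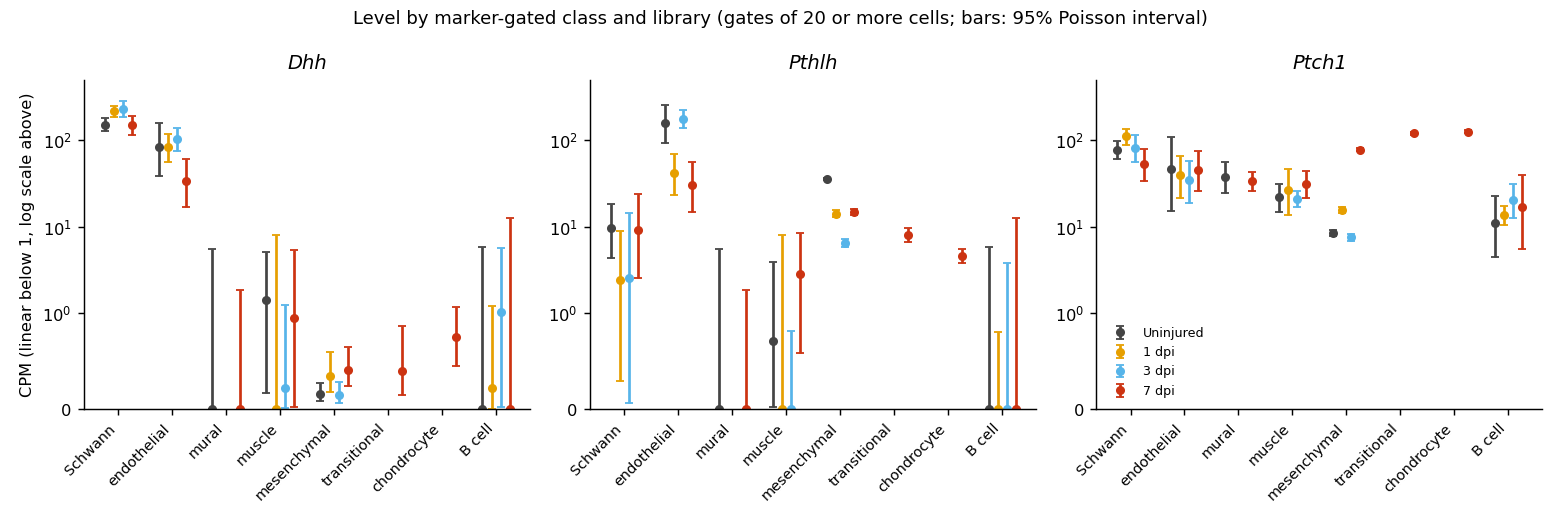
Level of Dhh, Pthlh and Ptch1 in CPM (vertical axis linear below 1 and logarithmic above) in cell classes along the horizontal axis, coloured by library, with points for levels summed over the cells of a class and bars for 95% Poisson intervals. Dhh is high in the Schwann and endothelial gates of all 4 libraries, Pthlh in the endothelial and mesenchymal gates, and Ptch1 reaches 125 CPM in the chondrocyte gate.

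Pthlh (chr6:147252101-147264183, minus strand) was, unlike Ihh, highest before injury. In the mesenchymal gate it was 35.5 CPM (34.2 to 36.8) in uninjured muscle, 14.1 (12.9 to 15.4) at 1 dpi, 6.49 (5.84 to 7.19) at 3 dpi and 14.7 (13.6 to 15.9) at 7 dpi. The lowest level was thus at 3 dpi, with a partial return at 7 dpi, where the ratio over 3 dpi was 2.27 and in cells thinned to 1000 UMIs 1.83, no longer a call. Before thinning, Pthlh was the only member called at 1 dpi over uninjured, at 0.397 (0.361 to 0.437). In that comparison 4.25% of genes were called lower and the median log2 ratio of all genes was 0.17. The ratio of Pthlh at 7 dpi over uninjured was 0.415 (0.380 to 0.454). At 7 dpi Pthlh was lower again in cells with cartilage markers, with 8.03 CPM in the transitional gate and 4.60 CPM (3.80 to 5.51) in the chondrocyte gate, the latter 0.312-fold (0.254 to 0.381) the mesenchymal level.

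Mesenchymal cells were placed in the subset with the largest share of its markers detected, with a fixed minimum share. The Pi16 subset is named for Pi16, a marker of adventitial fibroblasts. It rested on Pi16, Dpp4, Cd55 and Sema3c, and a Pi16 UMI was not required. Among the mesenchymal subsets, the level of Pthlh was highest in the Pi16 subset in all 4 libraries. In the Pi16 subset it was 50.2 CPM in uninjured muscle, 28.7 at 1 dpi, 11.1 at 3 dpi and 29.7 at 7 dpi. In the subset marked by Smoc2, Col15a1 or both it was 26.9, 8.22, 6.81 and 18.4 CPM. The Pi16 subset was above the Smoc2 Col15a1 subset in all 4 libraries, by 1.87-fold (1.72 to 2.03), 3.49-fold (2.81 to 4.37), 1.63-fold (1.19 to 2.22) and 1.61-fold (1.25 to 2.08), and both subsets were lowest at 3 dpi. The Pi16 subset held 1281, 230, 75 and 102 of the 2793, 498, 362 and 617 Pthlh UMIs of the gate, so that most Pthlh UMIs were outside it in each library. Few endothelial cells gave levels of 157, 41.8, 177 and 30.4 CPM, from 17, 15, 72 and 10 Pthlh UMIs. Pthlh was called higher in the endothelial than in the mesenchymal gate in the uninjured, 1 dpi and 3 dpi libraries, and not at 7 dpi. Ratios of the endothelial level to the Pi16 subset were not computed. The 3 dpi endothelial level was 4.23-fold (2.40 to 7.94) that at 1 dpi, where 3.35% of genes were called higher. Pthlh in endothelium then stood at 0.172-fold (0.0791 to 0.335) at 7 over 3 dpi.

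The receptor for PTHrP was on the other side of this divide. Pth1r (chr9:110722085-110747145, minus strand) was 19.6 CPM in uninjured mesenchymal cells, 8.91 at 1 dpi, 20.1 at 3 dpi and 65.6 at 7 dpi. It reached 128 CPM (123 to 134) in the transitional gate and 591 CPM (581 to 600) in the chondrocyte gate, 9.003-fold (8.64 to 9.38) the mesenchymal level. With Col10a1 it rose further, from 444 CPM at 0 Col10a1 UMIs to 1766 CPM at 20 or more. Ligand and receptor RNA were therefore highest in different cells of the 7 dpi library, Pthlh in mesenchymal and endothelial cells and Pth1r in the chondrocytes that also had the most Ihh.

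The targets Ptch1, Gli1 and Hhip were higher at 7 dpi in the mesenchymal gate and were not limited to the chondrocyte gate. Ptch1 (chr13:63508328-63573598, minus strand) was 8.46 CPM (7.83 to 9.12) in the uninjured mesenchymal gate, 15.5 (14.2 to 16.8) at 1 dpi, 7.55 (6.84 to 8.30) at 3 dpi and 77.7 (75.1 to 80.4) at 7 dpi. Gli1 (chr10:127329882-127341974, minus strand, with Arhgap9 overlapping on the opposite strand) was 3.61 CPM (3.20 to 4.05), 4.90 (4.19 to 5.68), 2.37 (1.98 to 2.81) and 19.4 (18.1 to 20.7). Hhip (chr8:79965851-80058006, minus strand) was 1.84 CPM (1.55 to 2.17), 2.15 (1.69 to 2.69), 1.34 (1.06 to 1.69) and 8.79 (7.91 to 9.73). The 3 genes had the same order of libraries, with 3 dpi lowest and 7 dpi highest. The intervals at 7 dpi overlapped with those of no other library, while those of Ptch1 overlapped between uninjured and 3 dpi and those of Hhip between uninjured and both 1 and 3 dpi.

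At 7 dpi over uninjured, Ptch1 was 9.19-fold (8.46 to 10.0), Gli1 5.37-fold (4.69 to 6.17) and Hhip 4.77-fold (3.93 to 5.83). These were the 3 members called higher of 7 tested, Pthlh was called lower, and 15.1% and 10.0% of the 14313 genes tested were called higher and lower. The median log2 ratio was 0.54 over the members tested and 0.05 over all genes. Cartilage genes moved in the same gate and comparison, where 15 of a list of 16 were called higher with a median log2 ratio of 5.49. In the immune gates of 7 dpi, Col2a1 stood at 143% of the mesenchymal level, Acan at 21.2%, Pth1r at 18.9% and Sox9 at 9.97%. The part of RNA from other cells in these cartilage calls was not tested. Mesenchymal cells of 7 dpi with 0 of the 10 cartilage markers had 64.7 CPM of Ptch1. At 7 dpi over 3 dpi the ratios were 10.3 for Ptch1, 8.18 for Gli1 and 6.54 for Hhip, and with Pthlh at 2.27 these made 4 members called higher, where 9.03% of genes were. The steps at 3 dpi over 1 dpi were downward, with Ptch1 at 0.488, Gli1 at 0.483 and Pthlh at 0.460, against 5.22% of genes called lower. In cells thinned to 1000 UMIs the 7 over 3 dpi ratios were 4.12 for Gli1 and 3.38 for Hhip. The 3 over 1 dpi ratio of Gli1 was 0.808 in thinned cells and no longer a call. The 1 dpi over uninjured ratio of Ptch1 was 2.60 in thinned cells, a call, in place of 1.83. That of Hhip was 1.79 in place of 1.17, and no call. The fall of Ptch1 at 3 over 1 dpi was 0.556, and no call, when no cell was filtered out.

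**Figure D3:**
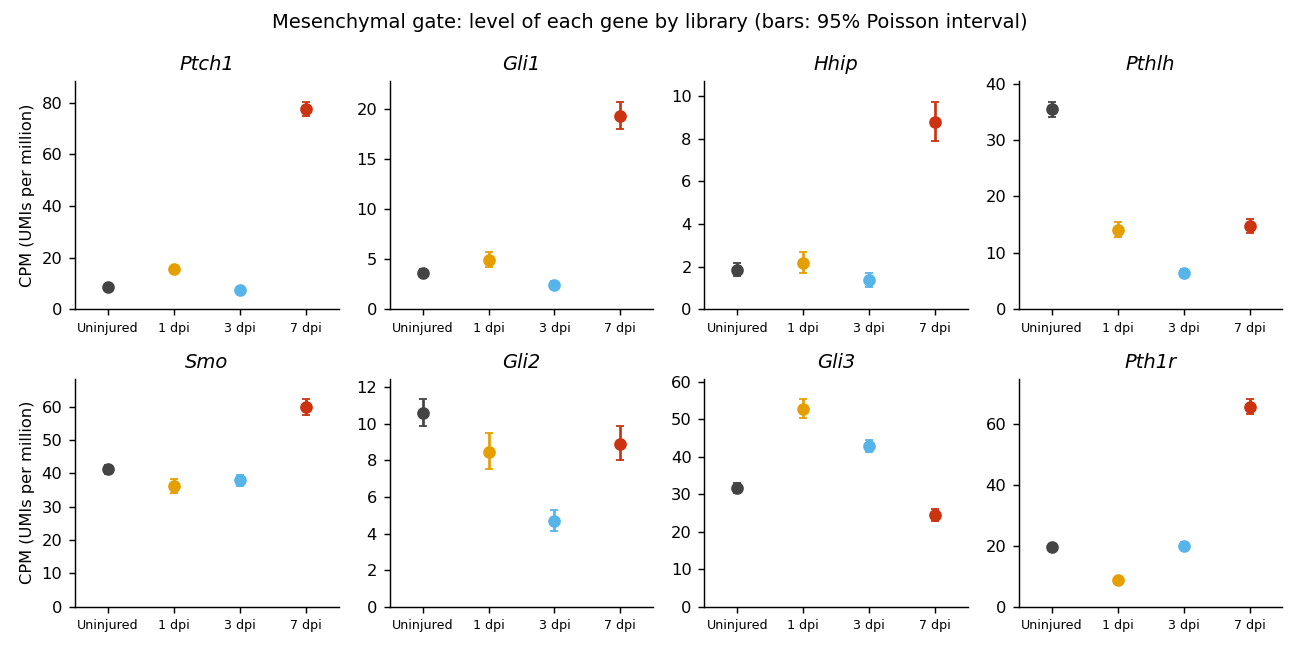
Level in CPM (vertical axes from 0, a scale for each gene) of 7 members and of Pth1r in the mesenchymal gate of the uninjured, 1, 3 and 7 dpi libraries along the horizontal axis, with points for summed levels and bars for 95% Poisson intervals. Ptch1 goes from 8.46 to 77.7 CPM, Gli1 from 3.61 to 19.4 and Hhip from 1.84 to 8.79 between uninjured and 7 dpi, while Pthlh goes from 35.5 to 14.7.

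Ptch1 was also found in blood cells, at levels near the mesenchymal ones in the uninjured and 3 dpi libraries. The sum of the immune gates had 6.53 CPM of Ptch1 in uninjured muscle, 7.82 at 1 dpi, 10.1 at 3 dpi and 10.4 at 7 dpi, which is 77.3%, 50.5%, 134% and 13.4% of the mesenchymal level of the same library. Gli1 in the immune gates was 0.187, 0.286, 0 and 2.43 CPM, and no Hhip UMI was found there in any library. For Ptch1 the uninjured intervals of the 2 kinds of cell overlapped, the immune level was the higher at 3 dpi, and the mesenchymal level was the higher at 1 and 7 dpi, while Gli1 and Hhip in the mesenchymal gate stood above the immune level in all 4 libraries. In B cells alone Ptch1 was 11.04 CPM (4.44 to 22.8) in uninjured muscle, from 7 UMIs, and 20.3 CPM (12.4 to 31.4) at 3 dpi, both above the mesenchymal values, so that the 7 dpi over uninjured ratio of Ptch1 had no value once the B cell level was subtracted, while those of Gli1 and Hhip did not move. What share of the low Ptch1 values was free RNA was not tested.

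With more cartilage markers, the targets did not follow Ihh. At 7 dpi Ptch1 was 64.7 CPM (59.5 to 70.1) in mesenchymal cells with 0 cartilage markers, 73.7 with 1, 89.2 with 2 and 119 with 3 to 4. It was highest at 140 CPM (131 to 149) with 5 to 6 markers, was 136 with 7 to 8 and fell to 106 (99.3 to 112) with 9 to 10, the group in which Ihh was highest. Gli1 was 18.3 to 20.6 CPM in all groups from 0 to 6 markers, with overlapping intervals, and then 15.5 (13 to 18.3) and 8.56 (6.84 to 10.6). Hhip was 6.89 to 10.9 CPM up to 4 markers and 5.04 to 6.41 above.

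In the chondrocyte gate as a whole, Ptch1 was 125 CPM (121 to 130), 1.61-fold (1.53 to 1.69) the mesenchymal level. Gli1 was 14.1 CPM (12.7 to 15.6), 0.728-fold (0.641 to 0.826), and Hhip 5.54 CPM (4.66 to 6.53), 0.630-fold (0.515 to 0.768). The chondrocytes therefore had more Ptch1 but less Gli1 and Hhip than the mesenchymal cells of the same library, all within the 2-fold limit. Along Col10a1 the Ptch1 level went from 128 CPM (123 to 133) at 0 UMIs to 77.1 (62.4 to 94.3) at 20 or more, and that of Gli1 from 14.7 to 8.93 with overlapping intervals.

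Other cell classes carried targets too. In the uninjured, 1 dpi and 3 dpi libraries Ptch1 was more than 2-fold higher in the endothelial than in the mesenchymal gate. At 7 dpi these gates were within 2-fold for Ptch1. Ptch1 in Schwann cells was 77.8 CPM (61.0 to 97.8) in uninjured muscle, 111 at 1 dpi, 82.0 at 3 dpi and 53.0 (33.6 to 79.6) at 7 dpi, so that it was high in the same cells and libraries as Dhh. No Hhip UMI and 0 to 2 Gli1 UMIs per library were found in the Schwann gate, where a count of 0 allows up to 3 UMIs, or 3.20 to 7.69 CPM. In mural cells, the contractile cells around vessels, Gli1 was 3.00 CPM (0.364 to 10.9) in uninjured muscle and 13.6 (8.96 to 19.8) at 7 dpi, and in the muscle gate of satellite cells and myoblasts it was 0.704 (0.0178 to 3.92) and 10.4 (5.21 to 18.7). The intervals of the 2 times overlapped for mural cells and not for muscle cells. Col2a1 went from 0 UMIs to 147 in the mural and 92 in the muscle gate over the same times, and the immune gates had 2.43 CPM of Gli1 at 7 dpi. The part of RNA from other cells in these values was not tested.

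SMO, which carries the signal from PTCH1 into the cell, and the factors GLI2 and GLI3 were expressed before injury. Smo (chr6:29735503-29761365, plus strand) was 41.2, 36.2, 37.9 and 59.7 CPM in the mesenchymal gates of the 4 libraries in order of time, a ratio of 1.45 (1.37 to 1.53) at 7 dpi over uninjured. Gli2 (chr1:118834132-119053619, minus strand) was 10.6, 8.46, 4.68 and 8.91 CPM, a ratio of 0.841 (0.743 to 0.952). Gli3 (chr13:15463235-15730026, plus strand) was 31.7, 52.9, 42.9 and 24.5 CPM, a ratio of 0.773 (0.719 to 0.832). None of the 3 passed the 2-fold limit between neighbouring libraries, but Gli2 was more than 2-fold lower at 3 dpi than in uninjured muscle and Gli3 more than 2-fold lower at 7 than at 1 dpi. At 7 over 3 dpi Gli2 was 1.90-fold, or 2.05-fold without cell filters, and Gli3 was 0.571-fold, 0.498-fold in thinned cells and 0.493-fold after the B cell level was subtracted. At 1 dpi over uninjured Smo was 0.879-fold and Gli2 0.799-fold, and in thinned cells both were just above 1. The 3 genes had no common order: Smo was highest at 7 dpi, Gli2 lowest at 3 dpi and Gli3 highest at 1 dpi.

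In the chondrocyte gate Smo was 57.0 CPM, 0.955-fold (0.894 to 1.02) the mesenchymal level, Gli3 22.2 CPM, 0.908-fold (0.818 to 1.01), and Gli2 5.46 CPM, 0.613-fold (0.501 to 0.747). Only the Gli2 interval left out 1. In the muscle gate Gli2 was 16.2 CPM in uninjured muscle, 35.1 at 1 dpi, 3.55 at 3 dpi and 3.80 at 7 dpi, with intervals of 10.3 to 24.3 and 20.1 to 57.0 in the first 2 libraries and 2.03 to 5.76 at 3 dpi. Gli3 in the muscle gate was 4.23, 11, 35.2 and 13.3 CPM, so Gli2 and Gli3 were highest there on different days, and 38.8% of genes in that gate were called between 1 and 3 dpi. In Schwann cells Smo was 46.2 to 71.5 CPM with overlapping intervals in all 4 libraries.

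Mesenchymal cells with a Gli1 UMI were described apart, since Gli1 marks cells that receive the signal. They numbered 244 in uninjured muscle, 115 at 1 dpi, 106 at 3 dpi and 684 at 7 dpi, which is 2.91%, 3.01%, 1.68% and 8.14% of the gate. In cells thinned to 1000 UMIs the shares were 0.393%, 0.681%, 0.346% and 1.81%. The share was thus highest at 7 dpi, although the cells of that library were the shallowest.

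The other targets were higher in the Gli1 cells of every library. Ptch1 was 3.42-fold (2.59 to 4.43), 12.9-fold (10.6 to 15.5), 6.16-fold (4.40 to 8.44) and 2.81-fold (2.60 to 3.02) the level in cells without Gli1, and Hhip 6.81-fold (4.24 to 10.5), 17.3-fold (10.4 to 28.2), 14.3-fold (7.69 to 25.2) and 3.73-fold (3.00 to 4.63). Of the cells with Gli1, 17.6%, 36.5%, 21.7% and 47.4% also had a Ptch1 UMI. Of all cells of the gate, 6.31%, 8.16%, 5.55% and 20.1% had a Ptch1 UMI.

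Smo, Gli3 and the co-receptor gene Gas1 differed less. Smo was 1.31-fold, 1.20-fold, 0.966-fold and 1.13-fold in the Gli1 cells, Gli3 0.761-fold to 0.931-fold and Gas1 0.936-fold to 1.00-fold. Pthlh, no classical target, was higher in the Gli1 cells of all 4 libraries, at 1.37-fold (1.12 to 1.65), 2.82-fold (1.99 to 3.88), 4.43-fold (2.90 to 6.52) and 1.33-fold (1.08 to 1.64). Sox9, the transcription factor of the chondrocyte lineage, was 3.63-fold (3.17 to 4.14), 5.47-fold (4.69 to 6.37) and 2.57-fold (2.07 to 3.16) in the Gli1 cells of the uninjured, 1 dpi and 3 dpi libraries, and 0.954-fold (0.872 to 1.04) at 7 dpi. The Gli1 cells of 7 dpi were deeper than the rest, with a median of 8088.5 against 2839 UMIs, which was not so in the uninjured library, with 9243.5 against 9152. Among cells of at least 5000 UMIs the Ptch1 ratios were 3.19, 11.7, 3.80 and 3.34 and the Hhip ratios 7.03, 25.2, 16.2 and 4.50, so the direction held in each library. At 3 dpi the Ptch1 ratio moved from 6.16 to 3.80 with this limit. The Pthlh ratio of 3 dpi moved from 4.43 to 2.86 and that of Sox9 from 2.57 to 2.05.

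**Figure D4:**
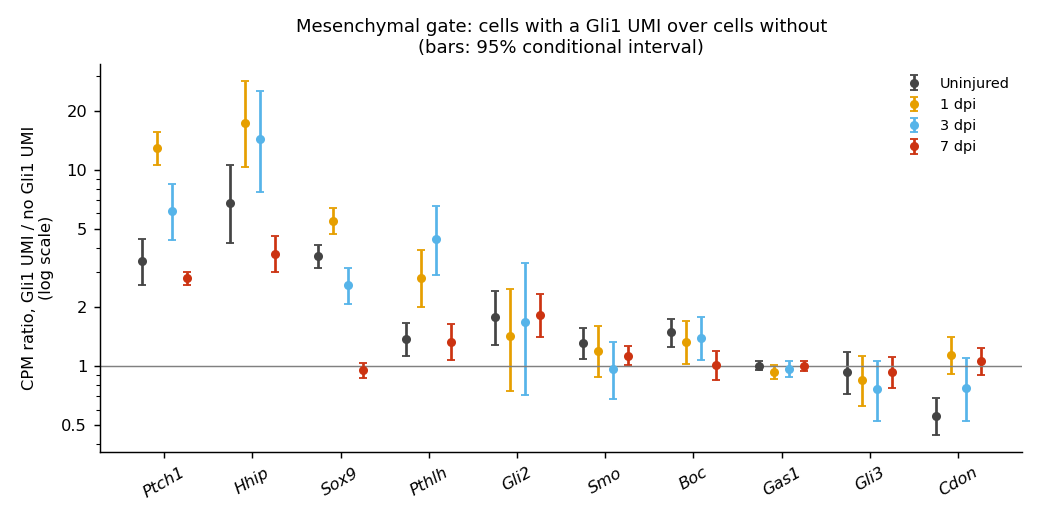
Ratio (log axis) of the level of each gene in mesenchymal cells with a Gli1 UMI to that in mesenchymal cells without, for genes along the horizontal axis and libraries by colour, with points for ratios of summed CPM and bars for 95% intervals of counting error. Ptch1 lies between 2.81 and 12.9 and Hhip between 3.73 and 17.3, while Gas1 lies between 0.936 and 1.00.

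Before injury the targets were found in some mesenchymal cells more than in others. In uninjured muscle Gli1 was 5.66 CPM in the 4370 cells of the Smoc2 Col15a1 subset and 0.784 CPM in the 2675 cells of the Pi16 subset, a ratio of 7.22 (4.56 to 12.1). Hhip was 2.51 and 0.157 CPM, a ratio of 16.0 (6.05 to 59.9) that rests on 97 and 4 UMIs. Ptch1 was 11.4 and 4.98 CPM, a ratio of 2.29 (1.88 to 2.81). The Pi16 subset was thus low in targets and high in Pthlh, although cells with a Gli1 UMI, as given above, had more Pthlh than those without.

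The ratios between these subsets were smaller at 7 dpi. For Gli1 the ratio had been 3.54 (2.09 to 6.41) at 1 dpi and 7.22 (2.68 to 27.3) at 3 dpi, for Ptch1 2.34 and 2.09, and for Hhip 17.7 at 1 dpi, from 35 and 1 UMIs, and already 1.24 (0.557 to 3.04) at 3 dpi. At 7 dpi Gli1 was 24.0 CPM in the Smoc2 Col15a1 subset and 16.9 in the Pi16 subset, a ratio of 1.42 (1.06 to 1.94). Hhip was 10.9 and 7.86 CPM, a ratio of 1.39 (0.897 to 2.21), and Ptch1 was 81.1 and 55.9 CPM, a ratio of 1.45 (1.24 to 1.71). The Lrrc15 Tnn subset had 74.7 CPM of Ptch1 and 17.3 of Gli1, and the tendon subset 62.4 and 9.24. Every named subset of 7 dpi therefore had Ptch1 levels of 45.6 to 81.1 CPM, all above the highest subset of uninjured muscle.

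A small set of cells marked by C7, Gdf10 or both had targets at 3 dpi, when the gate as a whole was lowest. In these 194 cells Gli1 was 14.4 CPM from 16 UMIs, Hhip 13.5 CPM from 15 UMIs and Ptch1 17 CPM from 19 UMIs. The ratios over the Smoc2 Col15a1 subset of the same library were 3.36 (1.81 to 5.90) for Gli1, 8.15 (3.97 to 16.2) for Hhip and 1.91 (1.11 to 3.10) for Ptch1. In uninjured muscle the Gli1 ratio of the same subsets was 0.418 (0.134 to 0.990), from 5 and 219 UMIs, and that of Ptch1 0.290 (0.116 to 0.603). The Hhip ratio was 1.70 (0.754 to 3.36) in uninjured muscle and 3.07 (1.15 to 7.01) at 1 dpi, so the interval of Hhip was above 1 at 1 dpi as well.

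**Figure D5:**
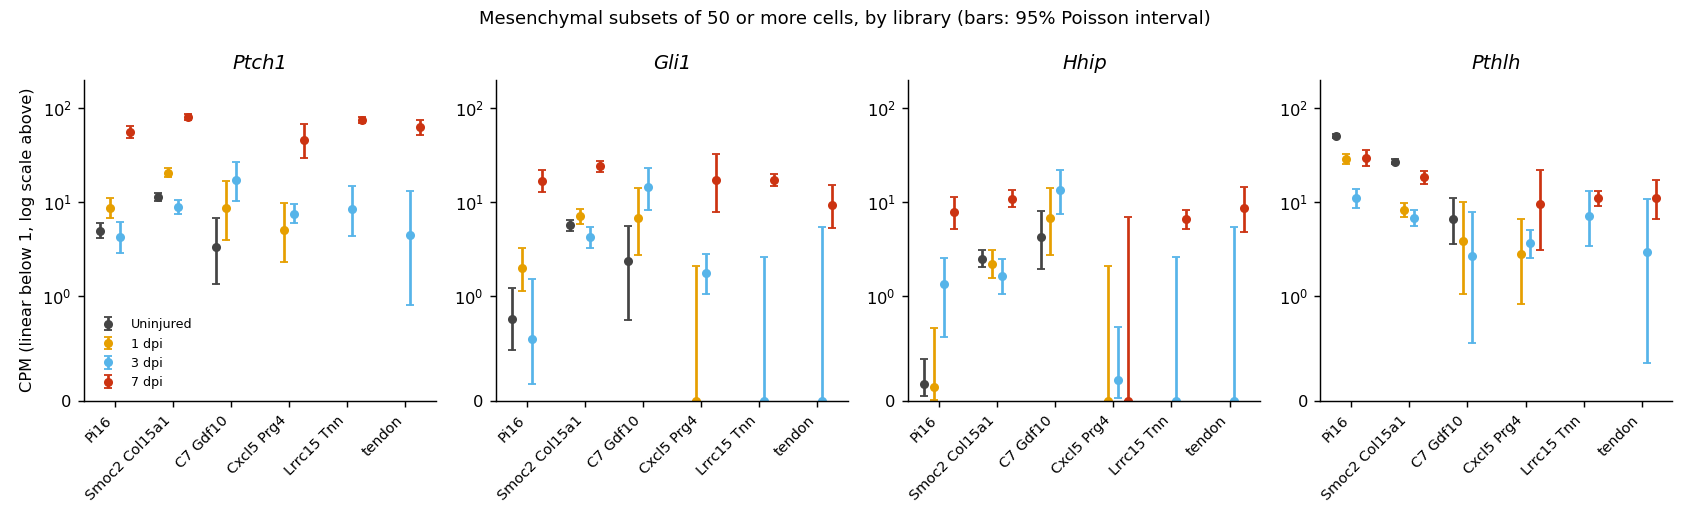
Level in CPM (vertical axis linear below 1 and logarithmic above) of Ptch1, Gli1, Hhip and Pthlh in subsets of the mesenchymal gate of at least 50 cells along the horizontal axis, coloured by library, with points for summed levels and bars for 95% Poisson intervals. Gli1 differs between the Smoc2 Col15a1 and Pi16 subsets in uninjured muscle, 5.66 against 0.784 CPM, and lies closer at 7 dpi, 24.0 against 16.9 CPM.

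The other genes of the pathway were taken from a list of 30, of which 25 had enough UMIs in the mesenchymal gate between uninjured and 7 dpi. Of these, 5 were called higher and 4 lower, and 16 were within 2-fold, where 25.1% of all genes were called in either direction. Among those higher were Scube2, which helps release lipid-modified ligand, from 2.68 to 13.3 CPM (4.97-fold, 4.23 to 5.85), and the ligand acyltransferase gene Hhat, from 4.28 to 11.01 CPM (2.57-fold, 2.23 to 2.97). Foxc2, a transcription factor gene of skeletal mesenchyme, went from 0.254 to 2.41 CPM (9.50-fold, 5.84 to 16.2), Pth1r was given above, and the kinase gene Stk36 made the fifth.

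Those lower included the co-receptors that help ligand bind PTCH1. Gas1 fell from 615 to 235 CPM (0.382-fold, 0.373 to 0.390) and Cdon from 68.2 to 31.9 CPM (0.468-fold, 0.441 to 0.497). The co-receptor gene Boc went from 45.2 to 28.2 CPM (0.622-fold), within the 2-fold limit. Disp1, which is needed to release ligand from the cells that make it, fell from 30.8 to 10.9 CPM (0.354-fold, 0.320 to 0.391), and Osr2 from 158 to 59.3 CPM (0.376-fold, 0.360 to 0.393).

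Between the chondrocyte and mesenchymal gates, 3 of 24 tested genes of this list were called higher and 1 lower, where 4.26% and 5.69% of all genes were. Scube1 was 25.1 against 0.931 CPM (27.0-fold, 19.5 to 38.3) and Scube3 3.85 against 0.573 CPM (6.72-fold, 4.26 to 10.98). These 2 genes of the ligand release family were thus higher in the gate that held most of the Ihh. Chondrocytes with and without Ihh were not compared for them. Gas1 was 83.5 against 235 CPM (0.356-fold, 0.339 to 0.373). Gas1 declined along the cartilage markers from 253 CPM (243 to 264) at 0 markers to 54.5 (50.02 to 59.3) at 9 to 10. Between the Col10a1-high and Col10a1-low chondrocytes, 4 of 24 were called higher, Scube1, Scube3, Gsk3b and Pth1r, and Scube2 was called lower, where 2.07% and 1.68% of all genes were. Of the 23 genes tested between the transitional and mesenchymal gates 0 were called, where 3.17% of all genes were.

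Of a list of 16 cartilage genes, 15 were called higher in the chondrocyte than in the mesenchymal gate and 1 was within 2-fold. Of all genes, 4.26% were called higher there. Between Col10a1-high and Col10a1-low chondrocytes, against 2.07% and 1.68% of all genes, 5 of the list were called higher and the matrix gene Ucma lower. Several of these genes are also markers of the chondrocyte gate, so their counts describe the gate and are no support for it.

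The genes most like Gli1 over the 29 sums were Hhip (Pearson r of 0.89), Ece2 (0.89), Gm48933 (0.88), Tro (0.87) and Cacng7 (0.87). Hhip is itself a member. The other target, Ptch1, had a lower r with Gli1, 0.517, than Gli2 (0.745), Gli3 (0.658) and Smo (0.649). The same sharing of 4 libraries applies.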

How the data were processed

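UMI counts per gene and cell were deposited by the authors as whole numbers, made with Cell Ranger 5.0.0 (STAR aligner) on mm10 according to the labels and the submitters' processing notes, which also name Seurat 3.1.1. The labels state that reads were down-sampled to level depth across libraries. Here barcodes within 2 SD of the mean log10 UMI and gene numbers and with at most 10% mitochondrial UMIs were kept, and the top 7.5% of Scrublet doublet scores per library was removed (scanpy 1.11.5, Python 3.11.15). Cells were gated by fixed markers (at least 3, leading the next class by 15 percentage points). UMIs were summed per gate and library, with exact Poisson intervals for levels and conditional Clopper-Pearson intervals for ratios at 95% (scipy 1.17.1). With 1 library a group no test between groups was possible, and no p-value is given. The ratio step was run on simulated Poisson sums, the model that its intervals assume, so spread between cells was not tested. Gene positions are from GENCODE M21, promoters from RefSeq. All 9 members are described; other pathway genes are named where called in the 7 dpi over uninjured or chondrocyte over mesenchymal comparison, and the 5 genes most like Ihh and Gli1 by correlation. Boc, the genes named along Col10a1 and the C7 Gdf10 cells were picked after their values were seen. Members and lists were chosen with earlier results of these data known. 1 further pathway gene was left out of all lists and counts and is not reported here. Alternatives changed the markers required, doublets, filters, depth, denominator, background and UMI minimum.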

Additional observations from a re-analysis of the deposited data

How the results depend on the processing

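No paired analysis was possible because each group is 1 library and the labels carry no replicate numbers. Ratios are given here on the log2 scale unless marked as fold. No alternative changed the call or direction of the checked ratios of members and Pth1r between classes or at 7 dpi over uninjured. Between neighbouring libraries, calls of Ptch1, Gli1, Gli2, Gli3 and Pthlh did change under some alternatives. Gli1 at 3 over 1 dpi was 0.525-fold with linear SD limits and 0.506-fold after B cell subtraction, neither a call. Ptch1 in that step was 0.501-fold with doublets kept, also no call. In cells thinned to 1000 UMIs, Ihh in chondrocytes over mesenchymal cells was 5.70 against 6.40, Pthlh at 7 dpi over uninjured -1.40 against -1.27, Ptch1 and Gli1 summed in chondrocytes over mesenchymal cells 0.31 against 0.52, and Ihh along Col10a1 2.34 against 2.75. Ihh along Col10a1 was also 2.54 and 3.03 with 1 marker more and 1 fewer, 2.59 with linear SD limits, 2.99 without cell filters, and 2.47 and 2.91 with Col10a1-high set at 1 and 5 UMIs. After the B cell level was subtracted as background, Ptch1, Gli1 and Hhip summed at 7 dpi over uninjured was 4.96 against 2.93 (31.2-fold against 7.62-fold). In uninjured muscle the B cell level of Ptch1 was above the mesenchymal one. The 31.2-fold therefore holds a negative Ptch1 term and is no estimate of the rise. With the same subtraction, Ptch1 and Gli1 in chondrocytes over mesenchymal cells was 0.61. The subtraction left no value for Ihh in chondrocytes over mesenchymal cells. It also left none for Ptch1 alone in the mesenchymal gate, at 7 dpi over uninjured or between any neighbouring libraries. Other pathway genes called at 7 dpi over uninjured numbered 9, and 7 to 10 under the alternatives. At 1 dpi over uninjured 2 values changed sign in thinned cells, Smo to 0.032 and Gli2 to 0.020. The cause of the other shifts was not tested. The restriction of Gli1 cells to 5000 UMIs was chosen after seeing the data. Dhh and Pthlh in endothelium rest on few cells and UMIs.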
